A study of Mus musculus with 24 samples.

Results

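Pericytes are mural cells that sit on the wall of brain capillaries, embedded in the same basement membrane as the endothelium. Endothelial cells recruit them with platelet-derived growth factor B, which acts on the receptor PDGFRB of the pericyte, and Notch signals from the endothelium keep them in place. In the brain they take part in forming the blood-brain barrier, in building the vessel matrix and in setting capillary flow, and they carry a potassium channel made of the subunit Kcnj8 and the sulfonylurea receptor Abcc9 that is scarce elsewhere in brain tissue. Arteriolar smooth muscle cells are their nearest relatives and hold far more contractile protein.

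Pericytes were taken here as cells with at least 1 UMI (unique molecular identifier, a counted RNA molecule) of Kcnj8 or Abcc9, at least 5 UMIs of Vtn plus Rgs5, at most 3 UMIs of Acta2 plus Myh11 and at most 1 UMI of Cldn5. Only cells with at least 1000 UMIs, at least 500 genes and at most 20% mitochondrial UMIs were used. The rule found 2675 pericytes among 103715 cells that passed these filters, from 127901 barcodes, a share of 2.58%. The cells were thus chosen by the UMI counts of these 7 genes, so their levels are given as description with no test, and the same holds for every contrast of these cells with the other cells.

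The cells came from 10x Genomics 3' libraries of mouse primary motor cortex and dorsal striatum. Mice of the TRAP type, which mark active cells permanently when 4-hydroxytamoxifen (4-OHT) is given, learned to reach with a forelimb for 2 days (early) or 8 days (late). Controls had 4-OHT and no training. Tissue was taken 3 days after labelling. Motor cortex came only from Fos-CreER::Ai9 mice and dorsal striatum only from Arc-CreER::Ai9 mice, so a difference between regions and a difference between genotypes cannot be told apart. In both lines the driver is the promoter of an activity gene, not a gene of a given cell type, and Ai9 is a Cre-dependent tdTomato reporter. All mice carried a CreER driver and the reporter, and all received 4-OHT. Each pool joined tissue of 2 mice (1 M and 1 F by their labels), with the left and right hemisphere (or, in trained mice, the contralateral and ipsilateral) as separate libraries. Ages were not given in the labels. There were 12 pools, 2 for each region and stage, and 24 libraries. For control replicate 1 of dorsal striatum only the left library was used, and its right one was not analysed here. A pool was the replicate. The p-values of the gene tests rest on a spread between pools estimated partly across genes, so they can understate a wide spread of a single gene.

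The labels name version 2 or 3 of the library kit without saying which library had which. By the barcodes they shared, pools fell into 2 classes: class A held replicate 1 of the control and late groups in both regions (4 pools), and class B held the other 8. No early pool was of class A. Pericytes per pool numbered 38 to 393, with a median of 1484 UMIs and 936 genes a cell against a median of 2848 UMIs over all passing cells. Some pericytes also carried RNA typical of other cells: 281 of them (10.5%) held more than 10 UMIs of a marker list of another type, most often neurons (139 cells) and microglia (81 cells). These 281 cells had a median of 3992 UMIs against 1432 in the rest and contributed 31.3% of all pericyte UMIs, from 16.6% in dorsal striatum control replicate 2 to 77.4% in dorsal striatum late replicate 1 and 88.0% in motor cortex control replicate 1. They are called mixed cells below, and results are given with and without them. The lists were those of endothelial cells, fibroblasts, astrocytes, microglia, neurons and oligodendrocytes. Smooth muscle markers were not among them, so leaving out mixed cells did not screen for that type. Of the pericytes, 62.9% had no UMI of the neuron markers, 83.9% none of the microglia markers and 76.8% none of the endothelial markers. For the smooth muscle markers, which include Myl9, it was 5.27%. Between libraries, 2 pericytes carried a barcode that a pericyte of another library also carried.

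The members were checked against pericyte genes that the rule did not use. Levels are CPM, the UMIs of a gene summed over cells and scaled to a common total. Since each molecule is counted once at its 3' end, they do not scale with gene length. Vtn, which encodes the adhesion protein vitronectin, stood at 9962 CPM in pericytes against 39.6 in all other cells, and Rgs5, a brake on G protein signals, at 5251 against 108. Kcnj8 stood at 984 CPM against 0.904 and Abcc9 at 836 against 0.754. Rgs5 was as abundant in smooth muscle gate cells, at 5054 CPM. Those cells held at least 10 UMIs of Acta2 plus Myh11 and numbered 2304, and the endothelial gate held 3554 cells with at least 3 UMIs of Cldn5. Of 40 pericyte identity genes outside the rule, 36 were above the other cells in all 12 pools. Pdgfrb, the receptor for the endothelial growth factor, was at 1013 CPM against 11.1, at 269 in the smooth muscle gate and at 5.52 in the endothelial gate. The proteoglycan gene Cspg4 (NG2) was at 433 CPM against 36.2, and Anpep (CD13) at 111 against 0.484, higher in 11 of 12 pools. Nkx3-2 was at 0, and Colec11 and Tnfrsf11b stayed near 1 CPM or below. The markers fit the label.

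Of 1345 genes with a UMI in at least 20% of pericytes, 481 outside the rule exceeded the other cells in all 12 pools, and 159 of these did so by at least 10 times. The largest ratio belonged to Pla1a, a phospholipase that cleaves phosphatidylserine, at 398 CPM against 1.00. Atp13a5, a P5-type ATPase, was at 1005 CPM against 2.92 and at 46.9 in the smooth muscle gate. Several leading genes encode enzymes of the cell surface or of the extracellular space. Enpep, a peptidase of the angiotensin pathway, was at 201 CPM against 1.43. Ggt1, the glutathione-cleaving gamma-glutamyltransferase, was at 255 CPM against 0.809, and the extracellular superoxide dismutase Sod3 at 791 against 4.99. Higd1b, a protein of mitochondria, was at 1165 CPM against 9.80, Ndufa4l2 at 1151 against 11.6 and Cox4i2 at 663 against 5.90. These 3 were also high in the smooth muscle gate, Higd1b at 452 CPM and Ndufa4l2 at 507. Ifitm1, Slc6a20a, Art3, Foxd1 and Cd248 stood at 1180, 610, 690, 361 and 244 CPM, each more than 100 times the level in the other cells. The fibroblast gate shared some of these, with Slc6a20a at 550 CPM and Foxd1 at 176. Of 24 glycolysis and hypoxia genes 3 were above the other cells in all pools, with a median ratio of 0.607.

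**Figure D1:**
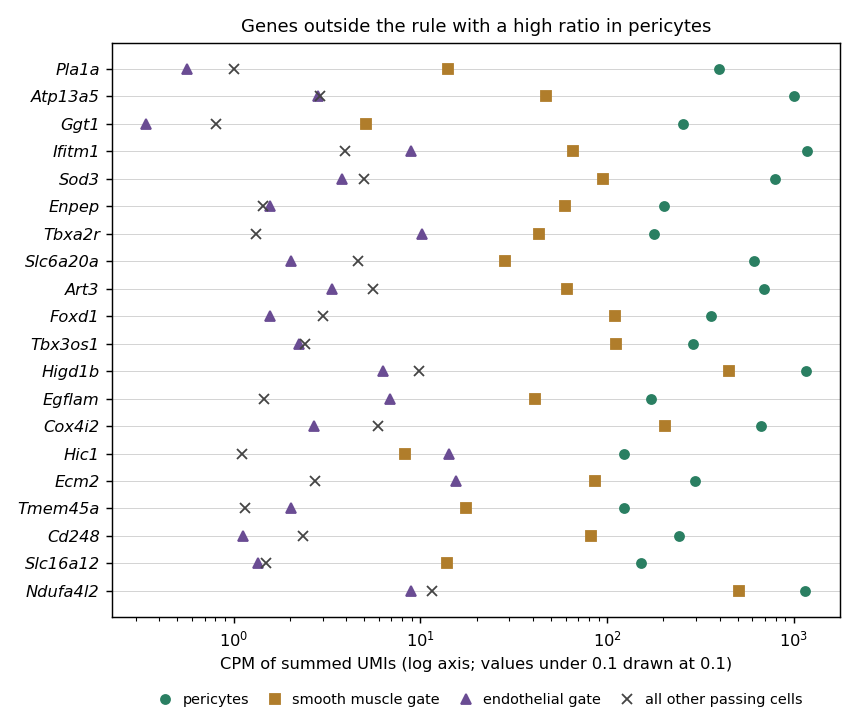
CPM of summed UMIs on a log axis for genes outside the rule that were among those with the highest ratio of pericytes to all other passing cells, in pericytes (green circles), the smooth muscle gate (squares), the endothelial gate (triangles) and all other passing cells (crosses). Pericytes are rightmost in every line, and the smooth muscle gate lies between them and the other cells, closest for Ndufa4l2 (507 against 1151 CPM).

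The known pathways of pericytes are described next with CPM of pericytes without the mixed cells, and the number of pools is over all pericytes against all other cells. Cells with RNA of other types were left in the gates and in the other cells. The 481 of 1345 genes above were all seen in at least 20% of pericytes. List counts run over every member, seen or not, so the shares are not alike. Members seen in at least 10% of pericytes numbered 9 of 18 in the BMP list, 11 of 26 in the vasoactive list and 12 of 23 in the ion channel list. In the inflammatory list they numbered 10 of 28, and in the heat shock list 14 of 14. The counts are description only. On the growth factor axis, the ligand Pdgfb stood at 4.00 CPM in pericytes and 154.5 in the endothelial gate, while the receptor Pdgfrb stood at 1368 and 5.52. Of 12 Notch pathway genes, 7 were above the other cells in all pools. The receptors Notch3 and Notch1 were at 579.7 and 445 CPM, and the target genes Heyl and Nrarp, which encode a repressor and a feedback inhibitor of Notch, at 251 and 283. The endothelial Notch ligand Dll4 was at 2.93 CPM in pericytes and 109 in the endothelial gate. Among 18 genes of transforming growth factor beta and bone morphogenetic protein (BMP) signalling, 8 were above the other cells in all pools. The ligands Bmp4 and Bmp5 were at 115 and 71.4 CPM against 9.48 and 0.684 in other cells, and at 4.95 and 14.8 in the smooth muscle gate, while the fibroblast gate held 154 CPM of Bmp4. Of the 14 genes of angiopoietin, VEGF and sphingosine signalling, 3 were above in all pools: Ptn, Epas1 and S1pr3. Ptn encodes the secreted growth factor pleiotrophin and stood at 8375 CPM, against 565 in other cells, 257 in the smooth muscle gate and 7615 in the fibroblast gate. The sphingosine receptor S1pr3 was at 383 CPM, while the endothelial sphingosine receptor S1pr1 was at 413.5 in the endothelial gate and 49.2 in the other cells as a whole.

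Matrix genes formed a broad group: 14 of 26 were above the other cells in all 12 pools. The capillary basement membrane is built of type IV collagen, laminin and nidogen. Col4a1 was at 517 CPM against 21.8 in other cells, the laminin chains Lamc1 and Lama2 at 533 and 260 against 19.8 and 5.15, and Nid1 at 589.6 against 4.62. Fibroblast gate cells held similar levels, with Col4a1 at 514 CPM, Lamc1 at 418 and Nid1 at 516. The collagen- and laminin-binding integrin Itga1 was at 1288 CPM. Among 26 vasoactive genes, 10 were above in all pools. The 2 subunits of the nitric oxide receptor, Gucy1a1 and Gucy1b1, were at 453 and 918 CPM, and Pde5a, which breaks down the cyclic GMP they make, at 216. The purinergic receptor P2ry14 was at 1190 CPM, the endothelin receptor Ednra at 179.9, and Agtr1a, the main angiotensin receptor, at 0.533. Of 23 ion channel genes, 9 were above in all pools, among them the 2 of the rule. The calcium-activated chloride channel Ano1 was at 242 CPM against 3.86 and the potassium channel subunit Kcne4 at 436 against 5.47. Itpr2, a release channel of internal calcium stores, was at 244 CPM in pericytes and 21.5 in the smooth muscle gate.

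Of 24 solute carriers and barrier enzymes, 12 were above the other cells in all pools. The median ratio to the other cells was 14.9 over all pericytes, and that to the smooth muscle gate was 2.97 for pericytes without mixed cells. The amino acid carrier Slc6a20a was at 818 CPM, the folate carrier Slc19a1 at 668.5, the sodium-potassium-chloride carrier Slc12a2 at 582 and the manganese exporter Slc30a10 at 270.5. Their levels in the smooth muscle gate were 28.4, 156, 95.1 and 15.5 CPM, while the fibroblast gate held 550 CPM of Slc6a20a. The glucose carrier of the barrier, Slc2a1, ran the other way, at 36.5 CPM in pericytes and 2733 in the endothelial gate. Of 28 inflammatory genes, 10 were above the other cells in all pools. Il34, which signals to the microglial receptor Csf1r, was at 489.6 CPM against 40.9 (552 in the fibroblast gate), and Cebpd, Osmr and Il1r1 at 713, 150.3 and 52.2 against 25.7, 4.42 and 2.10. Icam1, Vcam1 and C3, genes of leukocyte adhesion and complement, stood at 2.40, 2.93 and 0 CPM.

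The limits of the rule touched few cells on most sides. Of the members, 577 had exactly 1 UMI of Kcnj8 plus Abcc9, and 784 cells met every other condition with 0. There were 58 members with 5 or 6 UMIs of Vtn plus Rgs5 and 35 cells just outside with 3 or 4. On the contractile side, 227 members had 1 to 3 UMIs of Acta2 plus Myh11, 24 of them exactly 3, and 67 cells outside had 4 to 9. For Cldn5, 14 members had 1 UMI and 47 cells outside had 2 or more. Another 1411 barcodes met the gene conditions and failed the filters on UMIs, genes or mitochondrial share.

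For several genes, though not all, the contractile limit cut through a series of graded levels. Cells that met every other condition, mixed cells aside, were sorted by their UMIs of Acta2 plus Myh11, the genes of smooth muscle actin and myosin: 2191 cells had 0, 149 had 1, 54 had 2 or 3, 66 had 4 to 9 and 83 had 10 or more. Tagln, an actin-binding protein of smooth muscle that the rule did not use, was lowest in the first class and stood at 126, 473, 1641 and 5209 CPM in the next 4. Tpm2, a smooth muscle tropomyosin, ran from 176 CPM to 2986, and Crip1 from 363 to 4194. Myl9 and Mylk moved little within the rule, from 2014 to 2414 CPM and from 463 to 520. In the cells with 10 or more UMIs they stood at 4827 and 1635 CPM. Cnn1 was not graded: it was at 2.67 CPM in the first class, 0 from 1 to 9 UMIs and 133 at 10 or more. In the same order Vtn ran from 13947 CPM down to 11163, 7836, 7825 and 4397, and Kcnj8 from 1372 to 396. Rgs5 was lowest where the contractile genes were at 0 (6830 CPM) and highest in the cells with 4 to 9 UMIs (13451 CPM). Notch3 was likewise lowest at 0 (567 CPM) and highest at 4 to 9 UMIs (857 CPM), and stood at 578 CPM with 10 or more. Higd1b and Ndufa4l2 hardly moved within the rule: Higd1b was at 1569.5 CPM with 0 contractile UMIs and 1291 with 2 or 3. Deeper cells reach higher UMI classes more easily, and no test was made along the series, since the classes share libraries.

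**Figure D2:**
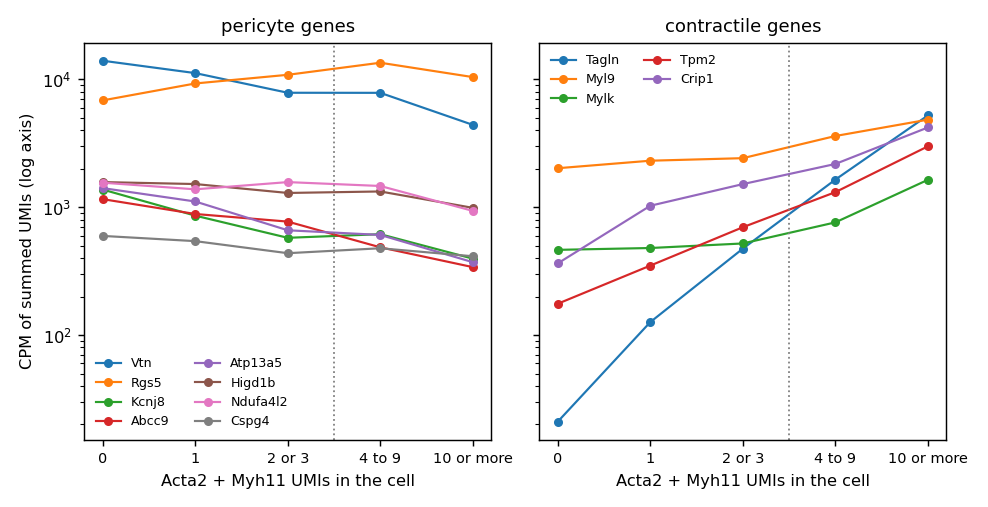
CPM (log axis) of 8 pericyte genes (left) and 5 contractile genes (right) in cells sorted by their UMIs of Acta2 plus Myh11, mixed cells left out; the dotted line marks the limit of the rule. Tagln runs up to 5209 CPM and Vtn from 13947 to 4397, with no step at the limit. Cnn1 and Notch3 are not drawn.

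Immediate early genes, which cells switch on within minutes of a stimulus and also during tissue dissociation, were among the most abundant RNAs. Of 35 such genes, 23 were above the other cells in all 12 pools. Fos was at 8875 CPM in pericytes without the mixed cells, Jun at 8757, Fosb at 7584 and Egr1 at 4445, against 589, 608.5, 282 and 733 in all other cells. In the endothelial gate Fos was at 2860 CPM and Jun at 4298. The pools ranged widely: Fos lay between 2550 CPM in motor cortex late replicate 1 and 15525 in dorsal striatum control replicate 2. Arc and Npas4, activity genes of neurons, were at 8.80 CPM each, below the 82.8 and 121 of the other cells. Of 14 heat shock genes, 6 were above the other cells in all pools, and their median ratio was 1.11 over all pericytes. Hspa1a was at 3568 CPM against 250.2. The tissue had been digested with papain for 1 h before the cells were sorted into droplets.

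The reporter was read from 2 added features, tdtomato and wpre, the second a stretch of viral origin in the reporter transcript. In motor cortex 29.1% of 1536 pericytes had a wpre UMI (95% exact interval 26.8 to 31.4), and in dorsal striatum 27.2% of 1139 (24.6 to 29.9). These intervals cover counting error only. Microglia, cells with at least 3 UMIs of the complement genes C1qa, C1qb and C1qc, gave 8.30% of 12374 and 7.69% of 6173 cells although they were deeper, with medians of 1939 and 1903 UMIs against 1471 and 1494 in pericytes. At lower depth the share in pericytes was above that in microglia, and the smooth muscle gate gave 30.0% and 27.5% and the endothelial gate 28.6% and 27.5%. Those gates were deeper than pericytes, with medians of 2259 and 2297 UMIs and of 1725 and 1664, so their shares are not a like comparison. Pools ran from 13.3% (2 of 15 cells) to 42.1% (8 of 19 cells) in pericytes without the mixed cells, with a median of 27.1%, and from 4.00% to 11.1% in microglia. Those 2 pericyte pools were the smallest, and the others ran from 17.2% to 38.3%. For tdtomato the shares were 0.781% and 1.84% in pericytes and 0.0889% and 0.130% in microglia.

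The share of pericytes among passing cells did not differ beyond the spread between pools for region or stage. In motor cortex it was 0.810% and 3.72% in the 2 control pools, 5.24% and 2.46% in the early pools and 2.74% and 2.85% in the late pools. In dorsal striatum it was 0.959% and 2.48% in the control pools, 2.71% and 2.90% in the early pools and 0.325% and 3.57% in the late pools. The regions overlapped: the mean was 2.97% ± 1.46 in motor cortex and 2.16% ± 1.25 in striatum (SD, n = 6 each), a difference of 0.812 percentage points (two-sided exact permutation test, p = 0.344, the smallest possible being 0.00216). Stages were compared by exact permutation within regions, with p-values that cannot fall below 0.0556. The early share was 3.33% ± 1.29 against 1.99% ± 1.38 in controls (n = 4 each), a difference of 1.33 points with an exact p of 0.222, and the late share was 2.37% ± 1.41, 0.380 points above the controls with an exact p of 0.778. The late difference turned to −0.00155, −0.348 or −0.433 points when striatal control replicate 1, motor cortex control replicate 1 or striatal late replicate 2 was left out. The 3 lowest pools were all of class A, whose shares were 1.21% ± 1.06 (n = 4) against 3.24% ± 0.932 (n = 8) in class B. With the gene rule applied at any depth, as a share of all barcodes, the classes lay closer, at 2.57% ± 1.62 and 3.65% ± 0.815, and striatal control replicate 1 of class A (3.12%) was above its class B counterpart, control replicate 2 (2.49%). Within class B the early difference was 0.225 points and the region difference 0.651 points (exact p = 0.429). Each region had only 1 control pool in class B. Too few arrangements of pools exist there for a small p, so the early difference within class B is given without a test. In a dissociated sample, fewer pericytes in the tissue and fewer recovered from it cannot be told apart.

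**Figure D3:**
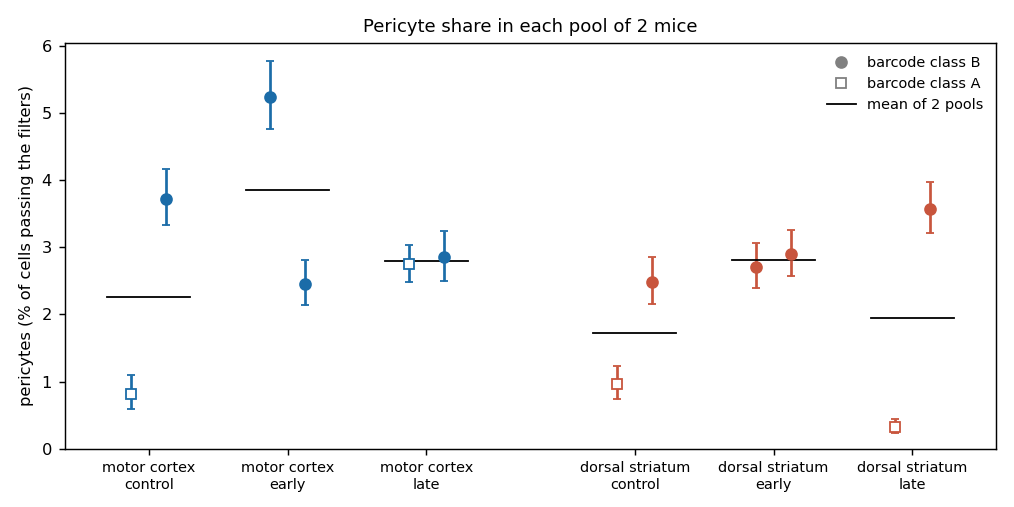
Share of pericytes among passing cells in each pool of 2 mice, in percent, with Wilson 95% intervals for counting error; circles are barcode class B, squares class A, and horizontal lines the mean of 2 pools. The 3 lowest pools, from 0.325% to 0.959%, are class A pools, and pools of the same group differ by more than their intervals in the control and late groups of striatum and in the control and early groups of motor cortex.

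Motor cortex and dorsal striatum pericytes were then compared gene by gene over all 12 pools, with stage and barcode class in the model (edgeR quasi-likelihood test, Benjamini-Hochberg adjustment over 9106 genes). At an adjusted p under 0.05, 232 genes were called, a percent called of 2.55, with 124 higher in motor cortex (percent called 1.36) and 108 higher in striatum (percent called 1.19). The smallest p-values belonged to genes known from neurons of 1 region or the other. The striatal genes Tac1 (a neuropeptide precursor; log2 difference −6.11, SE 0.31, adjusted p 1.6722e-08), Ppp1r1b (DARPP-32, −4.07) and Drd2 (the D2 dopamine receptor, −7.26) were lower in motor cortex. The cortical genes Slc17a7 (the vesicular glutamate transporter 1, 6.61), Cck (6.27), Neurod2 (6.36) and Vip (7.88) were higher there. For 217 of the 232 genes the level in pericytes lay below that in the other cells of the same pools, with a median ratio of 0.392. Neuron marker RNA in pericytes ranged from 997 to 10068 CPM over motor cortex pools and from 1117 to 7947 over striatal pools. Among the 40 identity genes, 0 of 37 tested were called, beside a percent called of 2.55 over all genes. At that rate a list of this size would hold few or none.

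Among the 15 called genes that were more abundant in pericytes than in other cells, 7 were higher in motor cortex (Nr4a2, Bhlhe40, Adamts4, Usp2, Tbx15, Lum and Ptgds) and 8 in striatum, among them Nts, Tgfbi, Ccl11, Ogn, Aldh1a1, the pseudogene Hsp25-ps1 and Axin2. These names were chosen after their values were seen. Several calls were lost in most alternative analyses: Axin2 in 23 of 27, Tbx15 in 18 of 26 and Lum in 17 of 22. Adamts4, Aldh1a1 and Ogn lost theirs in 11, 11 and 9 of 27. Ptgds and Lum are genes of fibroblasts of the brain coverings. Ptgds stood at 94.4 CPM over all pericytes and at 6.66 once the mixed cells were left out, against 6655 CPM in the fibroblast gate, and without mixed cells it was at 0 in 10 of 12 pools. Its log2 difference over all pericytes was 6.31.

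With the mixed cells removed, the comparison rested on 10 pools, because motor cortex control replicate 1 (19 cells left) and dorsal striatum late replicate 1 (15 cells left) fell below 20 pericytes and were dropped. It called 66 of 8149 genes, a percent called of 0.81, with 31 higher in motor cortex and 35 in striatum (edgeR). Of these, 31 were also among the 232, and 110 of the 232 were no longer abundant enough to be tested. Now 34 of the 66 were more abundant in pericytes than in other cells, 21 of them higher in motor cortex and 13 in striatum. The 21 included RNA known from red blood cells: the haemoglobin genes Hba-a2 (5.14), Hbb-bs (4.59), Hba-a1 (4.43) and Hbb-bt (4.15) and the haem synthesis gene Alas2 (4.77) had larger differences than any other of the 21, and their pools overlapped between the regions. For Hbb-bs, motor cortex early replicate 2 lay at 5.87 log2 CPM and the next motor cortex pool at 11.41, beside an SE of 0.58. The haemoglobin calls are thus not shown to exceed the spread between pools. Neuronal genes were still present among the other 32, such as Cck (6.59) and Sox11 (−5.69). With predicted doublets removed in place of mixed cells 13 genes were called, and with both removed 50. The genes called in all 4 settings numbered 7. Among them were Nr4a2, Bhlhe40 and Nts, which pericytes held above the other cells, and the striatal neuron genes Tac1, Ppp1r1b and Penk.

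Nr4a2, an orphan nuclear receptor induced by activity and stress, had the smallest adjusted p among the genes higher in motor cortex that pericytes held above the other cells. Without mixed cells it was at 291 CPM in motor cortex control replicate 2, 293 and 324 in the 2 early pools and 278 and 254 in the 2 late pools. In striatum it was at 108 and 115 CPM in the 2 control pools, 76.5 and 64.3 in the early pools and 62.7 in late replicate 2. The regions did not overlap, with means of 288 ± 25.3 and 85.3 ± 24.6 CPM (SD, n = 5 each) and a log2 difference of 1.87 (SE 0.21, edgeR adjusted p 1.2015e-07). In the 2 dropped pools it was at 98.2 CPM (motor cortex) and 0 CPM (striatum). In the 2 sequencing batches that held both regions the differences in log2 CPM over all pericytes were 2.21 and 2.24. Bhlhe40, a repressor tied to the circadian clock and low oxygen, was at 107, 138, 142, 126 and 102 CPM in motor cortex, in the same order of pools, and at 17.9, 44.8, 52.8, 75.1 and 35.5 in striatum. These values did not overlap either, at a log2 difference of 1.41 (SE 0.25, adjusted p 0.00048). Over all pericytes, both genes were called in 26 of 27 alternative analyses; the stricter cell filter, which left 596 pericytes, ended both calls, with edgeR adjusted p of 0.22 and 0.15.

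Nts stood higher in striatum. The gene, which encodes the precursor of the vasoactive peptide neurotensin, was at 556 and 643.5 CPM in the striatal control pools, 382 and 477 in the early pools and 365.5 in late replicate 2. In motor cortex it was at 109 CPM in control replicate 2, 172 and 160.1 in the early pools and 113 and 68.3 in the late pools. Every striatal pool was above every motor cortex pool, and the log2 difference was −1.90 (SE 0.22, adjusted p 1.739e-07). Other cells held 17.4 to 52.9 CPM of Nts in striatum and 0.957 to 3.14 in motor cortex, so the RNA was more abundant in striatum outside pericytes too. In the 2 batches with both regions the Nts differences over all pericytes were −1.83 and −2.41.

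**Figure D4:**
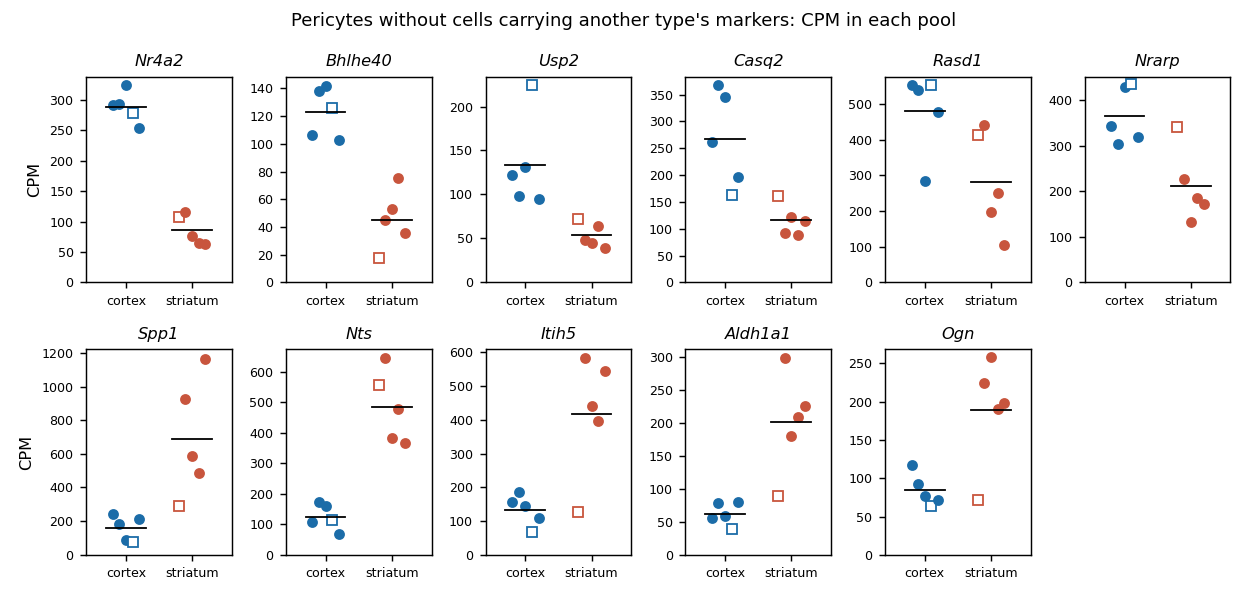
CPM in each of 10 pools of pericytes without mixed cells for 11 genes called between regions, motor cortex in blue and dorsal striatum in red; filled circles are barcode class B, open squares class A, and lines the mean of 5 pools. Nr4a2 (254 to 324 against 62.7 to 115 CPM) and Nts (68.3 to 172 against 366 to 644) have a clear gap between the regions, while the class A pool of striatum lies low for Spp1, Itih5, Aldh1a1 and Ogn.

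Other genes were called higher in motor cortex without mixed cells, among them Usp2, a clock-controlled deubiquitinase (134 ± 52.7 against 53.7 ± 13.7 CPM), Casq2, a calcium store protein of muscle (267 ± 89.9 against 116 ± 29.1), and Nrarp, the Notch feedback inhibitor (367 ± 62.1 against 212 ± 79.9; mean ± SD, n = 5 each). Their log2 differences were 1.32, 1.25 and 0.91 with edgeR adjusted p of 0.00066, 0.00016 and 0.012. Over all pericytes, Usp2 lost its call in 13 of 27 alternative analyses. Nrarp was not called in that set (0.57, adjusted p 0.44) and was called in 4 of 27 alternatives. Casq2 was not called there either, and its difference turned to −0.41 without motor cortex control replicate 2. Of 9 tested genes of the Notch list Nrarp was called, beside a percent called of 0.81 over all genes, and over all pericytes 0 of 10 were. Each was higher in motor cortex in both batches that held both regions, Nrarp by 0.94 and 0.86 in log2 CPM over all pericytes. Nr4a2 was the only member of the immediate early list called: 24 of its 32 tested members lay higher in motor cortex, with a median log2 difference of 0.31 against 0.04 over all genes.

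Among genes called higher in striatum without mixed cells, Spp1 (osteopontin) averaged 690 ± 353 CPM in striatum and 160 ± 74.2 in motor cortex, Itih5, a hyaluronan-binding protein, 418 ± 180 and 133 ± 45.1, and Ogn (osteoglycin) 189 ± 70.5 and 84.5 ± 21.2. The retinoic acid enzyme Aldh1a1 averaged 200.3 ± 75.6 CPM and 62.2 ± 16.9. Tgfbi and Ccl11 differed the same way, by −1.53 and −2.54 on the log2 scale, and Ccl11 stood at 0.0638 CPM in the other cells. Over all pericytes Spp1 and Itih5 were not called (adjusted p 0.25 and 0.086), and each was called in 10 of 27 alternatives, some of which kept the mixed cells. Of the 26 basement membrane and matrix genes 19 were tested without mixed cells and 0 were called, beside a percent called of 0.81 over all genes at which a list of this size would hold few or none, with a median log2 difference of 0.05 against 0.04 over all genes. Over all pericytes Spp1 was at 375 and 597 CPM in the 2 motor cortex early pools, and without mixed cells at 185 and 87.3. Within the batch of early replicate 2 of both regions, Spp1 in all pericytes differed by 0.24 in log2 CPM, and within that of late replicate 2 by −1.51, so the batches did not share its direction. Without mixed cells the values in the first batch were 87.3 CPM in motor cortex and 485 in striatum. The summed level of fibroblast markers in pericytes without mixed cells ranged from 303 to 429 CPM (median 354) over striatal pools and from 185 to 437 (median 297) over motor cortex pools. Of the fibroblast list, 3 of 9 tested markers lay higher in motor cortex, with a median log2 difference of −0.28 against 0.04 over all genes, so most lay to the same side as Spp1, Itih5 and Ogn. Over all pericytes 8 of 11 lay higher in motor cortex, with a median of 0.39. The part of fibroblast RNA in these results was not tested.

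The promoters of 2 of these genes are given as sequence, and their likeness was not measured. They cover 250 bases upstream of the RefSeq start (GRCm38.p6), for Nr4a2 at chr2:57124004-57124253 and for Nts at chr10:102490419-102490668, both on the minus strand, and are written 5′ to 3′ along the gene. Capitals mark TGACG, the core of a cAMP response element, and TGAGTCA, the AP-1 element bound by Fos and Jun dimers, in either direction (CGTCA and TGACTCA on the other strand).
Nr4a2: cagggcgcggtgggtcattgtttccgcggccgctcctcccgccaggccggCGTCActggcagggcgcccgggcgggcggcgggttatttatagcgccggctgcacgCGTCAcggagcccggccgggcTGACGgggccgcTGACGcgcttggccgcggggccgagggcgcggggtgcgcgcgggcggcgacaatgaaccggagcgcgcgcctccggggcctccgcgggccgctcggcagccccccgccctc
Nts: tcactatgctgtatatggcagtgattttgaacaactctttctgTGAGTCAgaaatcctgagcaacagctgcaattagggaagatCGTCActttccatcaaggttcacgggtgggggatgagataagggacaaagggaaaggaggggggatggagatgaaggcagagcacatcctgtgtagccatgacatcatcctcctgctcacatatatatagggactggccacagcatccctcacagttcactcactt
Nr4a2 held 4 matches of TGACG and 0 of TGAGTCA, and Nts held 1 of each. Of 32851 RefSeq promoters of the same length, 17.8% held TGACG at least once, 0.137% held it at least 4 times, and 4.46% held TGAGTCA. A match describes the letters and shows no binding. The promoter of Bhlhe40 was looked up as well but was missing from the promoter set used, so no sequence is given.

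The region difference was set against that in the neighbouring cells of the vessel wall, in a model with the pool as a block and mixed cells removed from each side; this comparison was added after the data were seen. Against smooth muscle gate cells 11 of 6798 genes differed, a percent called of 0.162, and against endothelial gate cells 17 of 7677, a percent called of 0.221 (edgeR). Nr4a2 was abundant in both neighbours and was not called between regions there: smooth muscle gate cells held 1174 ± 111 CPM in motor cortex and 985.5 ± 357 in striatum, and endothelial gate cells 644 ± 195 and 627 ± 242 (SD, n = 6 each). The region difference in pericytes exceeded theirs by 1.72 (SE 0.21, adjusted p 4.0997e-06) and 2.09 (SE 0.23, adjusted p 4.7983e-07) on the log2 scale. The region difference within those gates was 0.17 (SE 0.18) and −0.02 (SE 0.18). Bhlhe40, Usp2 and Nrarp exceeded the smooth muscle gate by 1.38, 1.15 and 0.86 (adjusted p 0.0040, 0.012 and 0.034), but their gaps to the endothelial gate, 1.04, 0.98 and 0.70, did not pass (adjusted p 0.055, 0.54 and 0.18). Against the endothelial gate, Itih5 differed by −1.62 (adjusted p 1.6913e-06); it is itself an abundant gene there, at 217.5 to 576 CPM. In the smooth muscle gate Itih5 lay at −1.89 (SE 0.85), and the gap of 0.57 to pericytes did not pass (SE 0.60, adjusted p 0.93).

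Nts was different: its region difference in the smooth muscle gate was −1.65 (SE 0.45), though it was not called there (edgeR adjusted p 0.19). The gap to pericytes was −0.02 with an SE of 0.72 (adjusted p 1), where the gate held at most 75.4 CPM. Tbx15, a transcription factor gene, was higher in motor cortex in both mural gates, by 1.89 in pericytes and 1.61 in smooth muscle (adjusted p 0.0080 there), and the gap of −0.23 had an SE of 0.53. Casq2 differed by 0.58 more in pericytes (SE 0.22), which did not pass (adjusted p 0.45). For these genes no difference between the cell types was shown.

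**Figure D5:**
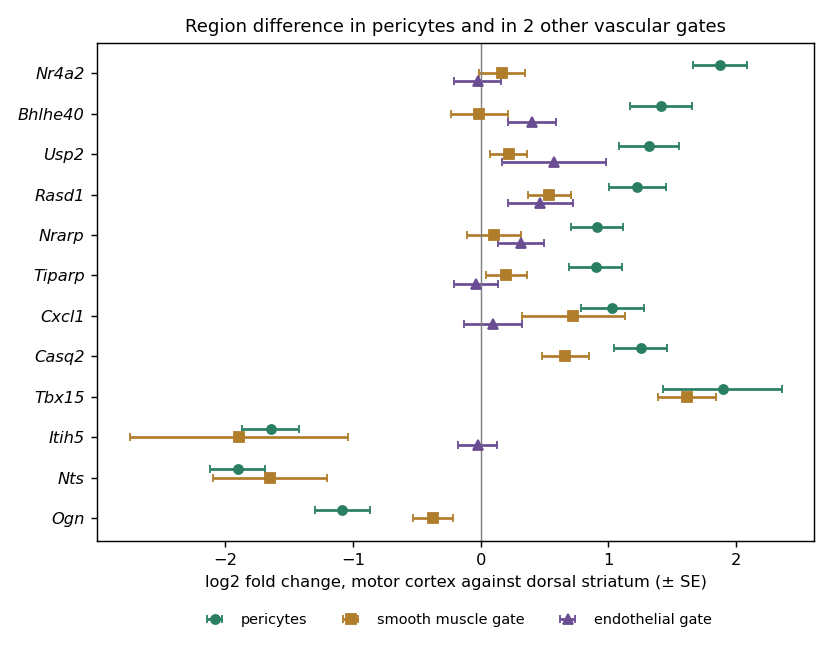
Log2 fold change of motor cortex against dorsal striatum, with its SE, for 12 genes in pericytes (green circles, 10 pools without mixed cells), the smooth muscle gate (squares) and the endothelial gate (triangles, where tested). Nr4a2 lies at 1.87 in pericytes and near 0 in both other gates, whereas Tbx15 and Nts lie on the same side in pericytes and smooth muscle.

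Training stage moved no gene of all pericytes past the threshold. Both trained stages against controls, and late against early, each had 0 called of 9106 (percent called 0), with 232, 234 and 190 genes at an unadjusted p under 0.05 (edgeR). The same held within motor cortex and within striatum and for the difference of the stage effects between regions. DESeq2 called 1 gene in striatum early against control and 1 and 12 genes for the regional differences of the early and late effects. Single pools moved these counts: without motor cortex early replicate 2, 108 genes were called for early against control in motor cortex and 81 for the regional difference of the early effect, and without motor cortex late replicate 2, 65 were called for that of the late effect. The early and late comparisons share their control pools. Power was low: in counts simulated for the early comparison 5% of 200 genes changed by 1 log2 unit were recovered (8489 genes), against 59% for the region comparison (8438 genes). False calls numbered 2 in the early simulation and 11 in the region simulation. In both they made up more than 5% of the calls, the share at which the threshold aims. The genes with the smallest p, none past the threshold, were CT010467.1 (3.31), Elavl3 (−1.06) and Gsn (2.33) for early against control, and CT010467.1 (3.34), Rpl28-ps1 (3.45) and Lars2 (2.03) for late against control. Between late and early they were Il1b (−2.29), Islr (−2.85) and Mcam (−0.95). In motor cortex, Ptgds came closest for early against control (6.98, adjusted p 0.053) and Cacng3 for late (−2.70, adjusted p 0.30). Markers of some other cells lay to the same side as Ptgds: 11 of 11 fibroblast markers, 8 of 9 oligodendrocyte markers and 10 of 10 microglia markers lay higher in early pools of motor cortex, with medians of 1.78, 3.55 and 1.77, none called. Neuron markers did not share this side. Among motor cortex pools an early one held the least neuron marker RNA, 997 CPM, and a control one the most, 10068. The cortical neuron gene Vip was at −3.61. The part of other cells in the result was not tested. In striatum, Il1b came closest for early (3.07, adjusted p 0.35) and Ndn for late (2.54, adjusted p 0.49).

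Whole lists lay to 1 side in the comparisons within regions. In motor cortex late against control, 37 of 37 identity genes lay higher, with a median log2 difference of 0.85 against 0.01 over all genes, and 0 of 10 neuron markers did, with a median of −1.09. In striatum the order was the other way round, with 0 of 37 identity genes and 9 of 10 neuron markers higher in late pools. The control pool of motor cortex and the late pool of striatum with the most UMIs in mixed cells (88.0% and 77.4%) lie on opposite sides of these comparisons. In the fit without mixed cells, which also lacked both of these pools, 22 of 37 identity genes lay higher in motor cortex and 23 of 37 in striatum, with medians of 0.16 and 0.13. Of the heat shock genes, 13 of 14 lay higher in late pools than in controls over both regions, with a median of 0.43 against 0.05 over all genes and none called. Over all pericytes it was 10 of 14, with a median of 0.24, and within striatum 8 of 14, with a median of 0.03. Immediate early genes lay lower in early pools, 3 of 32 being higher, with a median of −0.23 and none called. That count is over both regions without mixed cells: 11 of 32 were higher in motor cortex (median −0.04) and 3 of 32 in striatum (median −0.44). Over all pericytes the regions lay on opposite sides, with 28 of 34 higher in motor cortex (median 0.34) and 3 of 34 in striatum (median −0.66).

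Without the mixed cells 4 genes were higher in early than in control pools (percent called 0.0491) and 4 were higher in late pools (percent called 0.0491), and they were the same 4: CT010467.1 (3.91 and 4.15, adjusted p 1.0537e-06 and 8.0867e-07), Gm42418 (2.00 and 2.42), Lars2 (1.99 and 2.45) and mt-Rnr1 (1.95 and 2.06). Late against early had 0 called of 8149, with 265 at an unadjusted p under 0.05. CT010467.1 is annotated as ribosomal RNA on chromosome 17 (39846353 to 39848827, GRCm38), Gm42418 overlaps it on the opposite strand, and mt-Rnr1 is a mitochondrial ribosomal RNA; reads of such repeated sequences may be shared between copies, so their counts are uncertain. Gm42418 ran from 71.8 to 9589 CPM over the pools of pericytes, from 93.9 to 5359 in all other cells and from 76.5 to 10060.4 in the endothelial gate. The 4 class A pools held 71.8 to 294 CPM in pericytes, and among class B pools the value was lowest in motor cortex control replicate 2 (681.5). Its level thus varied by pool in each of these groups of cells.

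In striatum, but not in motor cortex, the genes called between stages without mixed cells included haemoglobin RNA. With the dropped pools, the motor cortex control group and the striatal late group were 1 pool each, so comparisons with them rest on that pool and assume that it varies like the other groups. In striatum early against control, 7 genes were called (percent called 0.0859), 5 higher and 2 lower. The haemoglobin genes Hba-a2 (9.55), Hbb-bt (7.36), Hbb-bs (6.69) and Hba-a1 (6.18) and CT010467.1 (2.67) were higher, and Rgs16 (−2.51) was lower. Hbb-bs, of red blood cells, was at 35.9 and 32.0 CPM in the striatal control pools, 1290 and 3284 in the early pools and 39.7 in late replicate 2. In motor cortex it ran from 50.9 CPM in early replicate 2 to 10592 in late replicate 1, and the endothelial gate held 13860 to 43224 in every pool. Hba-a1 and Hba-a2 are near-identical copies. Rgs16, which shortens G protein signals, was at 179.5 and 83.2 CPM in the striatal control pools, 13.2 and 18.8 in the early pools and 54.3 in late replicate 2. Against its single control pool, motor cortex early called 2 genes (percent called 0.0245), CT010467.1 and mt-Rnr1, and motor cortex late called the same 4 as above (percent called 0.0491). The single late pool of striatum against control gave 1 called gene (percent called 0.0123).

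Hemispheres contralateral and ipsilateral to the reaching limb were compared within 8 trained pools. Of 4963 genes tested, 0 were called (percent called 0), 164 had an unadjusted p under 0.05, and the smallest p belonged to Npc2 (−0.62), Qdpr (0.81) and Rgs2 (−0.83), each with an edgeR adjusted p of 0.46. Without mixed cells 0 of 3468 were called over 7 pools. The share of pericytes was higher on the contralateral side in 2 of 8 pools.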

How the data were processed

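The deposited matrices held raw UMI counts for each gene in each barcode. Per the file headers the software version was 3.0.2, while the submitters' processing notes name Cell Ranger 3.1.0 and the builds GRCm38 and mm10. Gene IDs of 54165 of 54235 features were found in GENCODE M21 (GRCm38). The 23 matrices of 24 libraries were read, and pericytes were chosen by the gene rule given above. The members and gene lists were chosen with earlier results of these data known.

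UMIs were summed per pool, hemispheres together, where a pool had at least 20 pericytes. Genes were tested with edgeR 4.0.16 in R 4.3.3 (quasi-likelihood F test, genes kept by filterByExpr, TMM normalization) with group and barcode class over 12 pools, leaving 5 residual degrees of freedom, with calls at an adjusted p (Benjamini-Hochberg) below 0.05. The common biological coefficient of variation was 0.252. The fit without mixed cells had 3 residual degrees of freedom. Hemispheres were compared over 16 libraries with the pool as a block. The fit was tested on simulated data for the region and early comparisons only. No simulation is given for the fit without mixed cells. Log2 CPM values for single pools carry a prior count of 2. Replicates of a group differed beyond sampling noise (chi-square over degrees of freedom 2.93 to 12.2). Replicates were numbered in record order, so the numbers are names; some sequencing batches joined pools of the same number and others pools of different numbers.

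Shares were compared by exact permutation of pools (scipy 1.17.1), with Wilson 95% intervals for pools. Intervals cover counting error only. In an alternative, doublets were scored with Scrublet (scanpy 1.11.5, 0.8% per 1000 barcodes; Python 3.11.15), which marked 228 pericytes. Other alternatives used DESeq2 1.42.0 and limma 3.58.1. Named genes were, per comparison, at most 20 called genes without overlap of pools by adjusted p, or else the 3 with the smallest p, plus members of the gene lists and at most 25 genes with the highest ratio to other cells. Genes that the text names beyond these were chosen after their values were seen. Some genes are not reported here.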

Additional observations from a re-analysis of the deposited data

Results flagged for a closer look

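In 10 of 73 groups of pools, 1 pool stood apart by Dixon's criterion, which chance alone meets in about 1 group in 20. The pericyte share of motor cortex early replicate 1, 5.24%, stood above the other early pools, the next being 2.90%. The remaining cases are log2 CPM of pericytes without mixed cells. Dorsal striatum control replicate 1, the pool that rests on 1 hemisphere, was the lowest striatal pool for Itih5 (6.88, the next 8.73), Tgfbi (5.75, the next 7.11), Ogn (6.13, the next 7.70), Adgrf5 (5.75, the next 7.23) and mt-Rnr1 (6.13, the next 11.01). That pool had few pericytes left, so these values rest on few UMIs. Tgfbi and Adgrf5 had the same value there, as did Ogn and mt-Rnr1. In striatum, early replicate 1 was highest for Alas2 (3.05). All other striatal pools lay at the floor for Alas2, so this flag rests on low counts as well. Whether the number of flagged groups exceeds chance at such low counts was not tested. In motor cortex, early replicate 2 was lowest for Hbb-bs (5.87, the next 11.41) and Emid1 (5.16, the next 5.95), and late replicate 2 for Ptp4a3 (7.41, the next 8.33).

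For 6 genes the stage effect without mixed cells differed between the regions in the edgeR interaction test, given as motor cortex minus dorsal striatum on the log2 scale. For early against control 5 of 8149 genes were called (percent called 0.0614): Rgs16 at 3.30, and the haemoglobin genes Hbb-bt at −8.47, Hbb-bs at −8.27, Hba-a1 at −7.65 and Hba-a2 at −11.10. For late against control, CT010467.1 was called at 6.18 (percent called 0.0123). In this fit motor cortex controls and striatal late pericytes are 1 pool each, so the early term rests on 1 single-pool group and the late term on 2, assumed to vary like the others.

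The region difference in pericytes differed from that in the smooth muscle gate for Nr4a2 (1.72), Bhlhe40 (1.38), Usp2 (1.15) and Nrarp (0.86), and from that in the endothelial gate for Nr4a2 (2.09), Itih5 (−1.62), Tiparp (0.94), Cxcl1 (1.21) and Alas2 (4.41), each by an edgeR cell type by region term. Of the genes named here, only Nr4a2 passed against both gates.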

How the results depend on the processing

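Nts was called between regions under all 27 alternatives (adjusted p up to 0.021) and Nr4a2 and Bhlhe40 under 26 (up to 0.22 and 0.15). The region count of 232 became 507 with no filter, 88 with no class covariate, 138 with the replicate number as a replicate block, 36 with a stricter cell filter, 13 without doublets, 66 without mixed cells, 86 in class B only, 50 without doublets and mixed cells, 40 without mixed cells in class B, and 102 without mixed cells at 10 pericytes per pool. With no filter the counts were 24 (early), 16 (late), 11 (late against early), 94 and 30 (motor cortex early, late), 28 and 18 (striatum early, late), 109 and 108 (regional differences of early and late) and 24 (hemispheres), and in this order up to the regional differences, without late against early, they were 4, 4, 2, 4, 7, 1, 5 and 1 without mixed cells, and 7, 7, 5, 5, 8, 2, 7 and 4 when 10 such pericytes per pool sufficed. With a stricter rule they were 6, 4, 17, 6 and 4 for early, late, motor cortex early and late, and striatum early, and 7 for the regional early difference. With at least 50 pericytes per pool, 1 gene was called for early, late and motor cortex late. Without doublets and mixed cells the counts were 8, 4, 2, 5, 3 and 1 for the first 6, and 1 for the regional late difference. Without mixed cells in class B they were 3, 4, 5, 1 and 1 for early, late, motor cortex late, striatum early and late. Fits of striatum alone called 10 genes for early and 10 for late, doublet removal 1 each, DESeq2 1, 1 and 12 (striatum early, regional differences), RLE factors 1 (motor cortex early) and limma-voom with the batch 1 (motor cortex late; batch correlation −0.336). Leaving out 1 pool gave 158 to 347 for region, 0 to 3 for early, 0 to 1 for late and late against early, 0 to 108 for motor cortex early (108 without its early replicate 2), 0 to 4 for motor cortex late, 0 to 1 for striatum early and late, 0 to 81 and 0 to 65 for the regional differences (the highest without motor cortex early and late replicate 2) and 0 for hemispheres. Differences in the pericyte share of cells ranged from 0.358 to 1.25 points for region, 0.606 to 2.06 for early and −0.433 to 1.19 for late. The pericyte share of cells late against control was −0.00155 without striatum control replicate 1, −0.433 without striatum late replicate 2 and −0.348 without motor cortex control replicate 1. Signs turned for Spp1 (0.0128), Cxcl1 (−0.0847) and AW011738 (−0.0359) under the stricter cell filter, Casq2 without motor cortex control replicate 2 (−0.41; up to 1.73 with other pools left out), Elavl3 (early, 0.22) and Vip (motor cortex early, 0.51) without doublets, Fos (early; 0.23 with no class covariate, 0.69 with the replicate block, 0.12 without motor cortex control replicate 2, down to −0.76 with other pools left out) and Penk (striatum early, −0.0143, no class covariate); the cause was not tested. Class B alone, combined removals, the 10 pericyte limit and the comparison with other gates were chosen after seeing the data. Depth of 1484 UMIs a cell and 38 to 393 cells a pool limit what could be detected.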
